A study of Oikopleura dioica with 67 samples.

Results

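The unigenes that carry the symbols Otx2, PAX3 and Pax7 in the larvacean tunicate Oikopleura dioica were followed through development, in embryo hemispheres and in adults. A unigene is a transcript assembled from reads without a genome. All unigenes with one of these symbols in the authors' staged table were taken, upper and lower case alike, which gave 7 of 19277 unigenes, of which 10122 carried any symbol. The symbols were chosen by their levels in vegetal against animal hemispheres at the 8-cell stage, so that contrast is given as a description, with no test. All 7 passed the filters on low values and were tested.

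Otx genes encode homeodomain transcription factors known in many animals for the patterning of the front of the embryo and its nervous system, and in ascidians also for early endoderm and mesoderm. Pax3 and Pax7 belong to a single family whose proteins carry a paired domain and a homeodomain. In vertebrates they act at the border of the neural plate, in the dorsal nerve cord, in neural crest and in muscle progenitors. Oikopleura keeps its tadpole tail for life and builds its body within hours of fertilization, so the times below are close together.

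All animals were wild type, from a population of Japanese origin kept in laboratory culture, and no agent was applied. Animal hemispheres, vegetal hemispheres and whole embryos made up the hemisphere set, each sampled as 8-cell embryos and again 12 h after fertilization (times are written as hpf), and each of these 6 groups had 4 libraries numbered 3 to 6. The staged set held 43 libraries of whole animals. It covered 13 stages, the first being the unfertilized egg and the last the juvenile of 10 hpf, with 3 libraries each, and adult females and males with 2 each. The labels do not say how hemispheres of 12 hpf were obtained and kept. Nothing in the labels says that libraries came from separate cultures, so p-values measure the spread between these libraries, which may be technical. Levels are RPKM, reads scaled by unigene length and library size. Differences are given with their SE on the log2(RPKM + 1) scale, where changes of weakly expressed genes come out too small. A change was called when limma's Benjamini-Hochberg adjusted p over all unigenes tested lay below 0.05.

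The Otx2 unigenes were OD_K21COV8_DN12597_c1_g7_i2, OD_K25COV10_DN10175_c0_g2_i3 and OD_K25COV10_DN9987_c0_g1_i1. PAX3 was OD_K25COV4_DN29997_c0_g2_i1, and the Pax7 unigenes were OD_K21COV10_DN15437_c0_g1_i1, OD_K21COV15_DN14034_c0_g1_i3 and OD_K21COV8_DN14916_c1_g1_i1. They are called below by symbol and DN number. A second sheet of the authors gives other symbols to the Otx2 unigenes, otx2-b for DN12597, otx5-a for DN10175 and otx5-b for DN9987. In the authors' list of 431 transcription factors, 4 of the 7 appeared, DN10175 and DN9987 with mouse OTX2 as best match (BLAST e-values 4.04e-32 and 5.18e-32) and DN15437 and DN14034 with mouse PAX7 (1.29e-99 and 1.43e-111). The 7 have distinct DN numbers, but unigenes with a shared symbol can share reads, and whether they are separate genes, alleles or parts of a gene was not tested.

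Staged libraries had 7785352 to 95644620 reads in 4 lanes. The step between low values gave a 9.85-fold range of relative depth among staged libraries and a 1.76-fold range in the hemisphere set. A pair of libraries stood apart in the cleavage stages, judged on 40 other unigenes with stage means under 1 RPKM from the egg to the 8-cell stage and at least 5 RPKM at 32 cells. Of these 40, 39 reached 1 RPKM in the whole 8-cell library 4, against 18 or 19 in the other 3 whole 8-cell libraries. In the third 16-cell library 21 did so, against 39 and 40 in the others of that stage. In the hemisphere set at 12 hpf, animal library 5 stood far above its group for both later Otx2 unigenes, as described below.

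The 7 unigenes fell into 3 periods. PAX3 DN29997 and Pax7 DN14916 were present at the 16- and 32-cell stages, Otx2 DN12597 from 1.5 to 3 hpf, and the other 2 Otx2 and 2 Pax7 unigenes at 3 hpf and on to the juvenile, Pax7 DN15437 among them already from 1.5 hpf. From the egg to the 8-cell stage no member exceeded 0.696 RPKM in any staged library. All 7 differed among the 13 stages by limma's moderated F-test, with adjusted p from 5.7e-24 to 3.39e-09, as did 92.9% of all unigenes. In the first 4 steps, up to 8 cells, none of the 7 was called (limma, 0 of 7 also at an unadjusted p under 0.05), where 0.0374%, 0%, 0.00535% and 0.0214% of all unigenes were. Over the 84 steps from a stage to the next, 7 unigenes at 12 steps each, 18 were called, 12 of them rises and 6 falls. The share of all unigenes called differed between steps, from 0% to 35.7%, and is given below with each step.

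**Figure D1:**
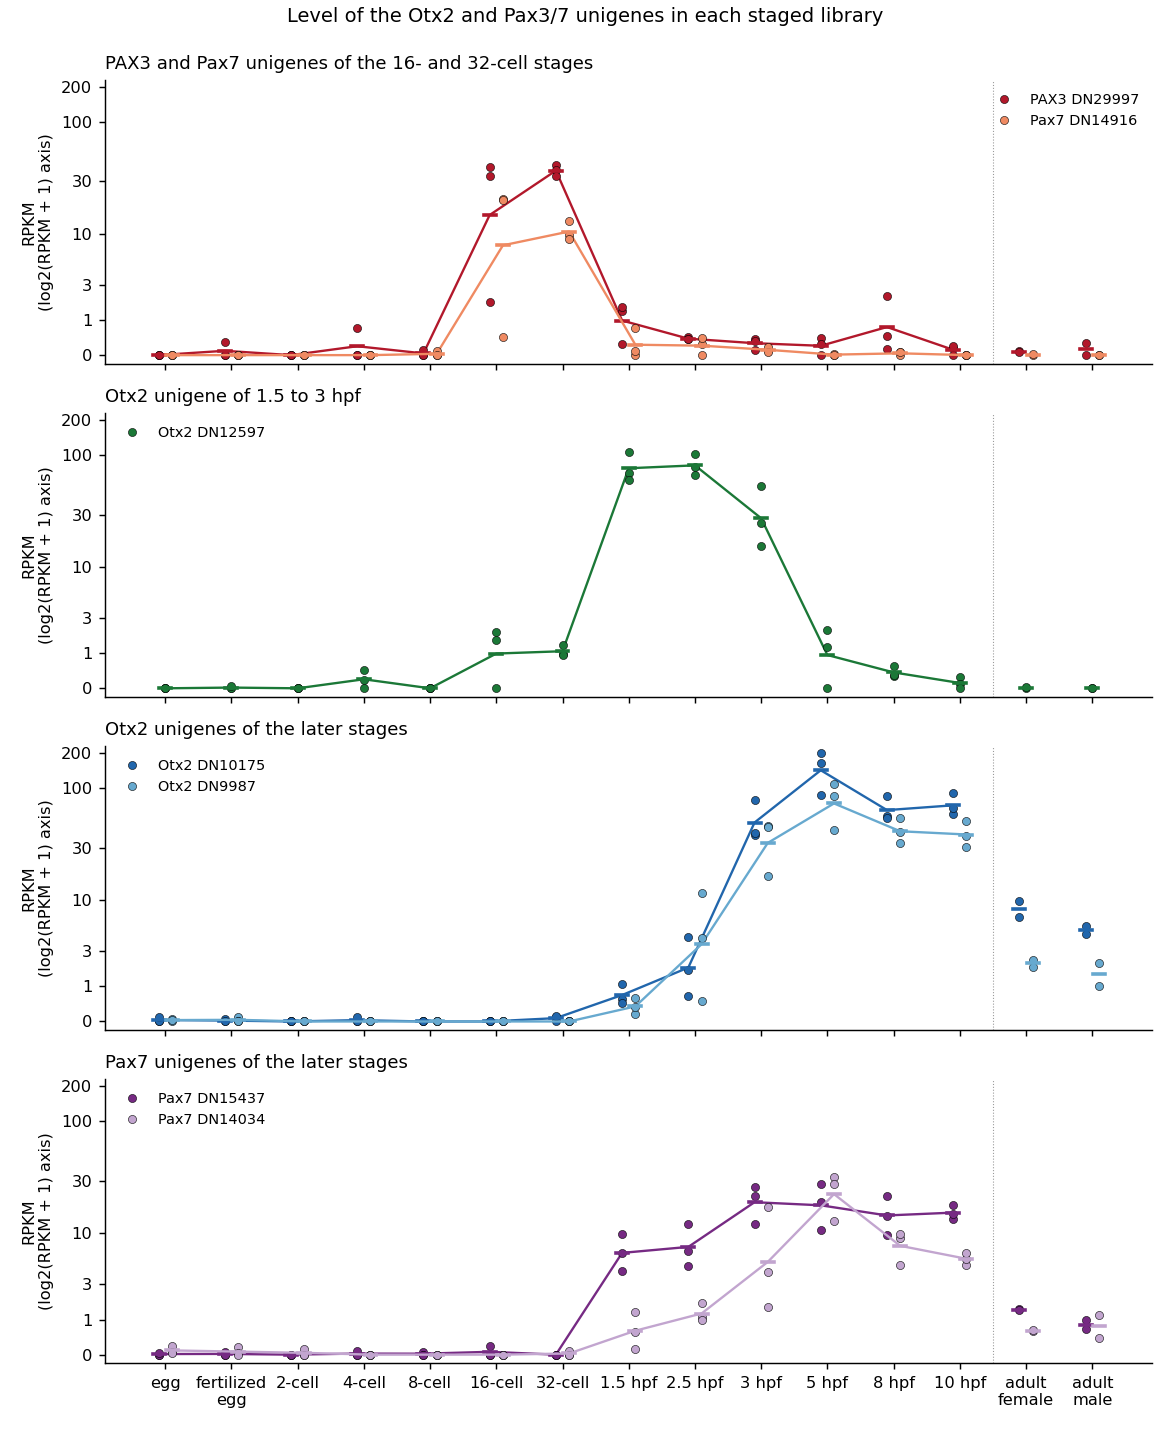
RPKM of each of the 7 unigenes in every staged library (points), on a log2(RPKM + 1) axis, with group means on that scale (bars, joined across stages), for 13 stages and both adult groups. PAX3 DN29997 and Pax7 DN14916 stand out at 16 and 32 cells except in one 16-cell library, Otx2 DN12597 at 1.5 to 3 hpf, Pax7 DN15437 from 1.5 hpf onward, and the other 3 from 3 hpf onward.

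PAX3 DN29997 was listed at 0, 0 and 0.108 RPKM in the 8-cell libraries. It stood at 40.5, 33.2 and 1.86 RPKM in the 16-cell libraries and at 41.5, 37.5 and 33.5 RPKM at 32 cells. Every 16-cell library lay above every 8-cell library, but the third lay far below the other 16-cell libraries. The rise from 8 to 16 cells was 3.95 ± 0.51 (limma adjusted p = 5.11e-06). Pax7 DN14916 took the same course, with 0, 0.082 and 0 RPKM at 8 cells, 21.1, 20.3 and 0.428 RPKM at 16 cells, and 13.3, 9.67 and 9.01 RPKM at 32 cells. Its rise was 3.09 ± 0.48 (limma adjusted p = 0.000125), again with no overlap. These were 2 of 7 members called at a step where 0.561% of all unigenes were called. Both were among the 3 members high in vegetal 8-cell libraries, the levels by which the symbols were chosen. Those libraries also held 33 to 37 of the 40 other unigenes low up to 8 cells and present at 32 cells. The count of 2 is therefore not independent of the choice. Otx2 DN12597 differed by 0.99 (limma adjusted p = 0.513), and by 1.49 (0.0382) without the third 16-cell library.

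The third 16-cell library was sequenced in lane 6 with all 8-cell libraries, the first and second in lane 4. Within lane 6 the 8- to 16-cell difference therefore rests on that library and was 1.46 for PAX3 DN29997 and 0.48 for Pax7 DN14916. With lane as a covariate the fitted rises were 3.13 (limma adjusted p = 0.000253) and 2.32 (0.00717). Without the third 16-cell library they were 5.19 and 4.40. It also carries a joined description, so it may be a pool, and its total of 10897562 reads was the lowest of that stage. The part of these in its low values was not tested. From 16 to 32 cells none of the 7 was called (limma, 1.76% of all unigenes; 1 of 7 at an unadjusted p under 0.05). That step depends on the same library: with lane as a covariate PAX3 DN29997 rose by 2.08 (adjusted p = 0.0194), and without the third 16-cell library the difference of Pax7 DN14916 was -0.91 (adjusted p = 0.00593), against 0.39 ± 0.48 with all libraries.

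Both transcripts then fell at the same step. PAX3 DN29997 stood at 1.41, 1.60 and 0.239 RPKM at 1.5 hpf, and Pax7 DN14916 at 0, 0.718 and 0.0793 RPKM. Each 1.5 hpf library lay below each 32-cell library, and the falls were -4.27 ± 0.51 (limma adjusted p = 3.48e-08) and -3.23 ± 0.48 (2.69e-06). After 1.5 hpf PAX3 DN29997 exceeded 1 RPKM in a single library, at 2.19 RPKM in the first of 8 hpf, while Pax7 DN14916 stayed at or below 0.399 RPKM. Over the 15 staged groups their mean log2 levels correlated at r = 0.99, and in the 10 libraries of either set where both reached 1 RPKM, PAX3 DN29997 was the higher in all 10 (median ratio 3.14, per length).

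Otx2 DN12597 was low in cleavage, at 2.02, 1.60 and 0 RPKM at 16 cells and 1.35, 0.973 and 0.945 RPKM at 32 cells. It stood at 69, 106 and 60.9 RPKM at 1.5 hpf, at 77.7, 67 and 102 RPKM in the tadpole of 2.5 hpf, and at 15.8, 53 and 25.3 RPKM in the hatched larva of 3 hpf. The libraries of 1.5 and 2.5 hpf overlapped with each other, and all lay above those of every other stage. The rise from 32 cells to 1.5 hpf was 5.22 ± 0.37 (limma adjusted p = 1.77e-13), where 14.5% of all unigenes and 4 of the 7 members were called, 2 in each direction. With a pseudocount of 0.1 the other 3, Otx2 DN10175, Otx2 DN9987 and Pax7 DN14034, were called higher in that step too (adjusted p = 0.001, 0.0128 and 0.00573). It then changed by -1.51 ± 0.37 to 3 hpf (limma adjusted p = 0.00224) and by -3.90 ± 0.37 to 5 hpf (adjusted p = 1.63e-10). With a pseudocount of 0.1 the first of these was not called (adjusted p = 0.164). At 5 hpf it was at 2.17, 1.27 and 0 RPKM, and adults were at 0.0208 RPKM or listed at 0. From 5 to 8 hpf it was not called (-0.50, limma adjusted p = 0.354), but was without the third 5 hpf library (-0.97, 0.0435).

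**Figure D2:**
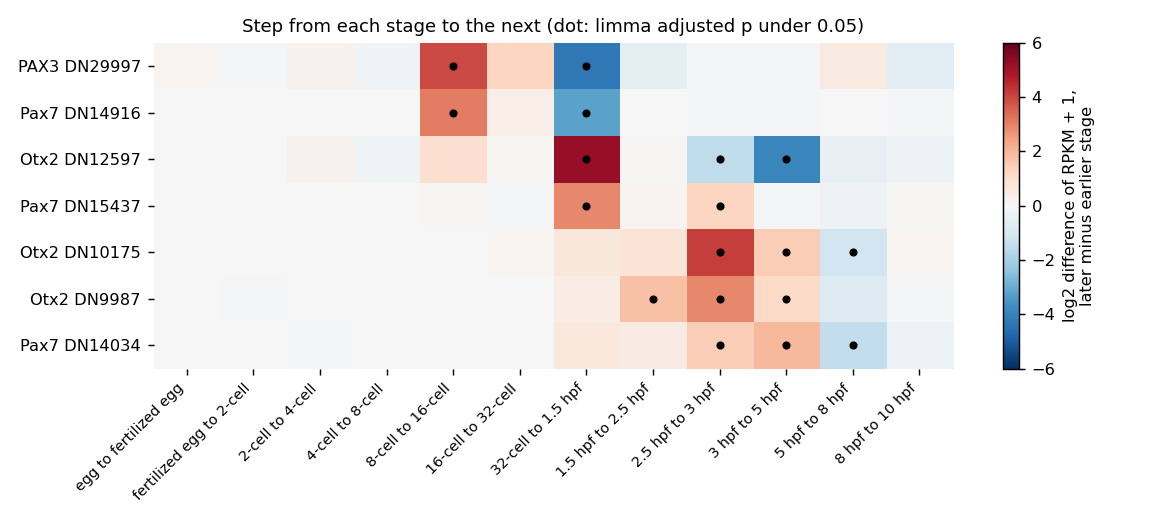
Difference of mean log2(RPKM + 1) between each stage and the one before (colour, later minus earlier) for the 7 unigenes (rows) at 12 steps (columns), with dots for limma adjusted p below 0.05. The 18 dots run from the 8- to 16-cell step of PAX3 DN29997 and Pax7 DN14916 to the falls of Otx2 DN10175 and Pax7 DN14034 from 5 to 8 hpf.

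Pax7 DN15437 was the earliest of the later group. It was listed at 0 in all 32-cell libraries and stood at 6.44, 9.78 and 4.19 RPKM at 1.5 hpf, a rise of 2.90 ± 0.33 (limma adjusted p = 1.07e-08). It went from 6.74, 4.75 and 12.3 RPKM at 2.5 hpf to 12.3, 21.9 and 26.7 RPKM at 3 hpf, groups that overlapped by a small margin at 12.3 RPKM, with a rise of 1.27 ± 0.33 (limma adjusted p = 0.00334) that was not called after quantile normalization (0.66, adjusted p = 0.158). From 3 to 10 hpf its libraries ran between 9.71 and 27.9 RPKM, and no step among these was called.

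Otx2 DN10175 and Otx2 DN9987 rose together later. Otx2 DN10175 stood at 1.78, 0.639 and 4.36 RPKM at 2.5 hpf, at 39.2, 40.7 and 78.1 RPKM at 3 hpf and at 200.2, 164 and 87.5 RPKM at 5 hpf. No library of an earlier stage reached one of the next in these steps, and the rises were 4.14 ± 0.33 (limma adjusted p = 1.05e-11) and 1.49 ± 0.33 (0.000455). Otx2 DN9987 stood at 4.16, 0.509 and 11.5 RPKM at 2.5 hpf, at 16.7, 46.8 and 45.8 RPKM at 3 hpf and at 109, 84.5 and 42.9 RPKM at 5 hpf. Its rise to 3 hpf was 2.89 ± 0.44 (limma adjusted p = 4.22e-06), with no overlap, and its rise to 5 hpf was 1.13 ± 0.44 (0.0428), with overlap.

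At 3 hpf 5 of the 7 members were called, 4 of them higher, against 27.6% of all unigenes. Otx2 DN9987 was also called from 1.5 to 2.5 hpf, where 3.17% of all unigenes were, by 1.77 ± 0.44 (limma adjusted p = 0.0145). That call ended with lane as a covariate (0.82, limma adjusted p = 0.538). No lane held libraries of both 1.5 and 2.5 hpf, so lane and stage cannot be told apart at this step. The covariate there rests on links through other stages. The call also ended without the third 2.5 hpf library (1.05, adjusted p = 0.37), without the first of 2.5 hpf (0.0756) or without the first of 1.5 hpf (0.0921). Otx2 DN10175 was not called in that step (0.78, adjusted p = 0.279) but was without the second 2.5 hpf library (adjusted p = 0.0249). The call of Otx2 DN9987 from 3 to 5 hpf ended without the first 3 hpf library (adjusted p = 0.28) and without the first or second of 5 hpf (0.196 and 0.126), and with a pseudocount of 0.1 (0.168). Over the 15 groups the mean log2 levels of Otx2 DN10175 and Otx2 DN9987 correlated at r = 0.98. Where both reached 1 RPKM, Otx2 DN10175 was the higher in 24 of 29 libraries per length, with a median ratio of 1.72.

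Pax7 DN14034 was low until 2.5 hpf, at 1.11, 0.969 and 1.76 RPKM. It stood at 4.13, 1.58 and 17.4 RPKM at 3 hpf, at 32.2, 28.4 and 12.9 RPKM at 5 hpf and at 8.93, 4.83 and 9.94 RPKM at 8 hpf. Of the 7, this was the one whose libraries of the highest stage, 5 hpf, overlapped with none of the second highest, 8 hpf. Its rise to 3 hpf was 1.47 ± 0.40 (limma adjusted p = 0.00511), a call that ended without the third 3 hpf library (0.69, adjusted p = 0.167) and after quantile normalization (0.65, 0.152). The rise to 5 hpf was 1.93 ± 0.40 (limma adjusted p = 0.000165), with an overlap at 3 hpf library 3, and the change to 8 hpf was -1.47 ± 0.40 (adjusted p = 0.00378). Otx2 DN10175 fell in the same step, with a difference of -1.14 ± 0.33 (limma adjusted p = 0.00763), a call lost without the first 5 hpf library (-0.89, adjusted p = 0.0687). With a pseudocount of 0.1 neither fall was called (adjusted p = 0.0725 for Pax7 DN14034 and 0.113 for Otx2 DN10175).

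At the step to 5 hpf 4 of 7 were called, 3 higher, against 35.7% of all unigenes, and at the step to 8 hpf 2 of 7, both lower, against 29.7%. None of the 7 was called from 8 to 10 hpf (limma; 4.29% of all unigenes, 0 of 7 at an unadjusted p under 0.05). At 10 hpf the order of the means was Otx2 DN10175 at 71.8 RPKM, Otx2 DN9987 at 40.2, Pax7 DN15437 at 15.7 and Pax7 DN14034 at 5.68. Neighbours in that order did not overlap between libraries.

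In adults the later 4 were low. Otx2 DN10175 was at 9.87 and 6.92 RPKM in females and 4.59 and 5.64 RPKM in males, and Otx2 DN9987 at 2.40 and 1.91 RPKM in females and 2.19 and 1.02 RPKM in males. Pax7 DN15437 was at 1.44 and 1.44 RPKM in females and 0.965 and 0.648 RPKM in males, and Pax7 DN14034 between 0.391 and 1.19 RPKM. Each adult library lay below each 10 hpf library for these 4, where 43.8% of all unigenes had groups without overlap, in either direction. They were the 4 of 7 called against the juvenile, all lower, where 49.4% of all unigenes were lower and 59.9% changed. The differences were -3.25 ± 0.31 (limma adjusted p = 3.97e-11), -3.83 ± 0.41 (5.7e-10), -2.98 ± 0.31 (2.05e-10) and -1.99 ± 0.37 (1.82e-05) in that order, with a median of -0.82 over all unigenes. After quantile normalization the last of these, Pax7 DN14034, was not called (-0.14, adjusted p = 0.728). In whole animals, fewer cells of a type and less RNA per cell cannot be told apart.

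Between the sexes none of the 7 was called (limma; 0 of 7 also at an unadjusted p under 0.05), against 46.8% of all unigenes. With 2 libraries in each sex the differences ran from -0.13 ± 0.48 for Pax7 DN14034 to 0.61 ± 0.41 for Otx2 DN10175, and quantile normalization turned the sign of Otx2 DN10175 (-2.11, adjusted p = 0.000221) and Otx2 DN9987 (-1.58, 0.00553). Both female libraries lay above both male ones for Otx2 DN10175 and Pax7 DN15437, where 69.9% of all unigenes had groups without overlap. The median difference over all unigenes was 0.73, and muscle markers summed to 3154 and 3438 RPKM in females and to 49370 and 84295 RPKM in males. Member by member the same list went the other way, with 22 of 64 called higher in females, 2 lower and a median of 0.90. The part of such differences in the RPKM of other genes was not tested.

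At the 8-cell stage the earliest 3 unigenes separated the hemispheres, the difference they were chosen by. Otx2 DN12597 was at 22.3, 4.76, 8.43 and 17.1 RPKM in vegetal libraries 3 to 6 and at 0, 0.133, 0 and 0 in animal libraries. PAX3 DN29997 was at 56.8, 30.7, 21.6 and 66.1 RPKM in vegetal and 2.79, 0.598, 1.91 and 0 RPKM in animal libraries. Pax7 DN14916 was at 11.7, 11.9, 1.47 and 31.2 RPKM in vegetal and 0.354, 0.0804, 0.242 and 0 RPKM in animal libraries. In each case every vegetal library lay above every animal library, with differences of 3.58, 4.32 and 3.20. These are 3 of 7 members, and across all unigenes 0.401% were called in this contrast, 62 of 63 of them higher in the vegetal hemisphere, and 1.15% had groups without overlap. The other 4 members did not exceed 0.290 RPKM in any hemisphere library.

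**Figure D3:**
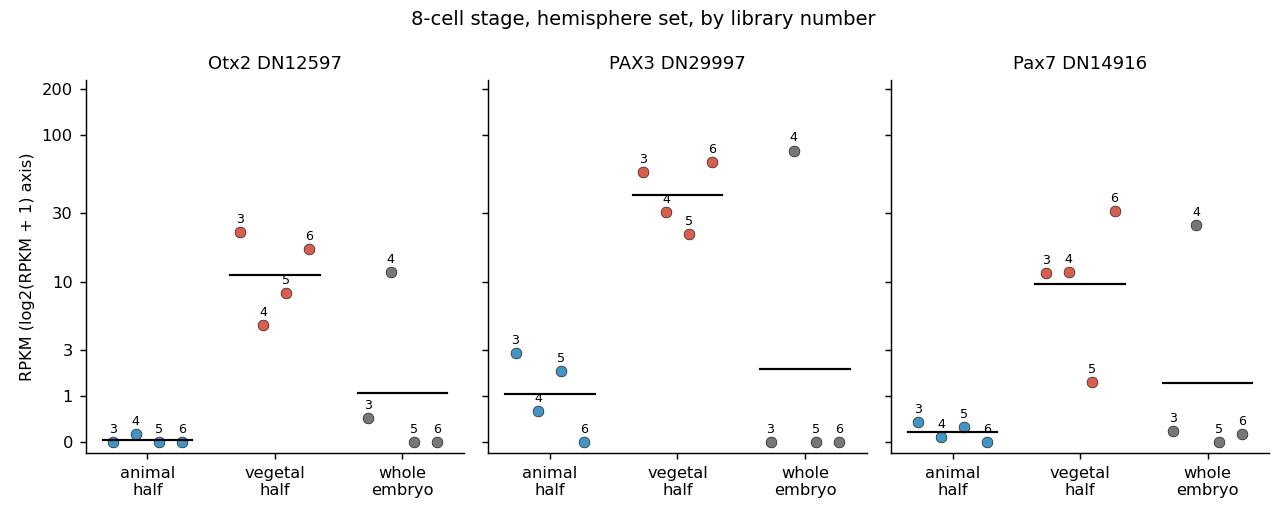
RPKM of Otx2 DN12597, PAX3 DN29997 and Pax7 DN14916 in 4 animal, 4 vegetal and 4 whole-embryo libraries of the 8-cell stage, on a log2(RPKM + 1) axis, with library numbers and group means (bars). All vegetal points lie above all animal points, and whole embryo library 4 lies with the vegetal hemispheres while the other 3 whole libraries are at 0.437 RPKM or below.

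Whole 8-cell embryos were uneven among libraries. Otx2 DN12597 was at 0.437, 11.8, 0 and 0 RPKM, PAX3 DN29997 at 0, 78.7, 0 and 0 RPKM, and Pax7 DN14916 at 0.177, 25, 0 and 0.131 RPKM in whole libraries 3 to 6. Library 4 alone exceeded 0.437 RPKM for any of them, and in the other 3 whole libraries PAX3 DN29997 was listed at 0, while the vegetal hemispheres with the same numbers held 21.6 to 66.1 RPKM. In the staged 8-cell libraries, also whole embryos, these 3 unigenes did not exceed 0.108 RPKM.

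The other unigenes low up to 8 cells and present at 32 cells moved with them. Of those 40, vegetal libraries held 33 to 37 at 1 RPKM or more, animal libraries 13 to 21, whole library 4 held 39, the other whole libraries 18 or 19, and the staged 8-cell libraries 1 to 3. The level of Otx2 DN12597 in vegetal hemispheres, 4.76 to 22.3 RPKM, was also above its staged levels at 16 and 32 cells, where the highest library was at 2.02 RPKM. The labels do not say whether hemispheres and whole embryos were collected at the same point of the 8-cell stage, and the part of these values in the contrast was not tested. Hemisphere libraries were not strand specific, so antisense reads cannot be told apart there.

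**Figure D4:**
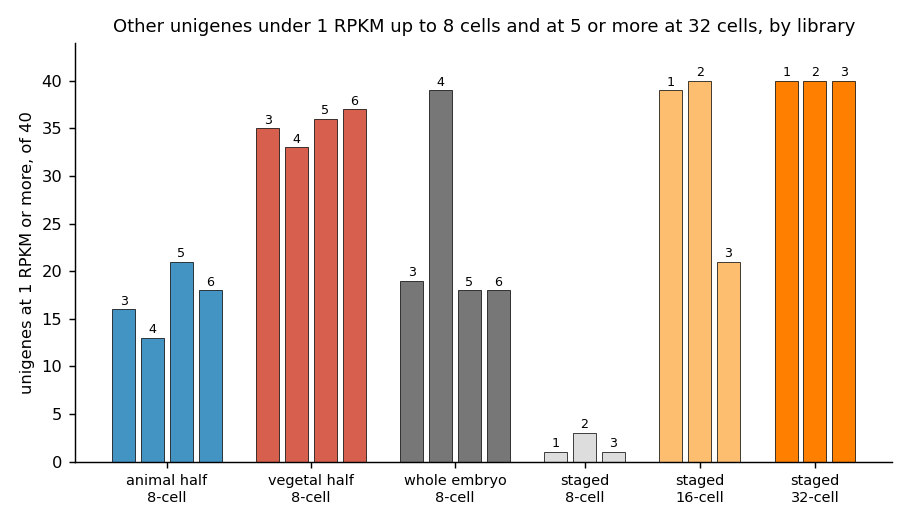
Number of 40 other unigenes at 1 RPKM or more in each library, for unigenes with stage means under 1 RPKM from the egg to the 8-cell stage and at least 5 RPKM at 32 cells, by group and library number (bars start at 0). Vegetal hemispheres hold 33 to 37, whole embryo library 4 holds 39, and the third staged 16-cell library holds 21 against 39 and 40.

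At 12 hpf the same 3 unigenes were nearly gone from all groups. PAX3 DN29997 was listed at 0 in 11 of 12 libraries and Pax7 DN14916 in all 12, and Otx2 DN12597 reached 0.564 RPKM in hemispheres and 0.449 to 1.13 RPKM in whole animals. The 4 later members made up the 12 hpf signal. Otx2 DN10175 was at 0.705, 8.76, 64.0 and 6.21 RPKM in animal, 15.5, 40.2, 13.7 and 15.4 RPKM in vegetal and 66.0, 69.1, 74.8 and 45.6 RPKM in whole libraries 3 to 6. Otx2 DN9987 was at 0.393, 6.70, 87.3 and 6.77 RPKM in animal, 3.46, 24.1, 7.68 and 6.0 RPKM in vegetal and 46.3, 65.2, 67.6 and 36.7 RPKM in whole libraries. Animal library 5 lay at the level of the whole embryos for both, and the other animal libraries lay below every whole library.

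Between the hemispheres at 12 hpf none of the 7 was called by limma, and 0 of 7 at an unadjusted p under 0.05, against 48.2% of all unigenes called. Otx2 DN10175 differed by 1.10 ± 0.62 (vegetal minus animal, limma adjusted p = 0.154) and Otx2 DN9987 by -0.03 ± 0.72 (0.981). The first value turned on animal library 5. Without it Otx2 DN10175 was called higher in vegetal hemispheres, by 2.03 (adjusted p = 0.00046). Without that library, vegetal library 3 and whole 8-cell library 4, both Otx2 unigenes were called, by 2.12 (adjusted p = 0.0007) and 1.40 (0.0279), the second with a turned sign. Those 3 were picked after the data were seen, and vegetal library 4, the highest vegetal one for Otx2 DN10175 at 40.2 RPKM, was kept. Over all alternatives run Otx2 DN10175 differed by 0.28 to 2.12, with limma adjusted p up to 0.702. Otx2 DN9987 differed by -1.02 to 1.40. The other 5 members stood at or below 1.32 RPKM in every hemisphere library, and after quantile normalization Pax7 DN15437 and Pax7 DN14034 were called lower in vegetal hemispheres (-0.49, adjusted p = 0.0477, and -0.38, 0.037).

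Whole 12 hpf animals held more of the later members than hemispheres did. Pax7 DN15437 was at 5.60, 5.74, 9.70 and 10.1 RPKM in whole animals and no higher than 1.19 RPKM in any hemisphere library, and Pax7 DN14034 was at 2.32, 3.55, 5.97 and 2.52 RPKM against at most 1.32 RPKM. For both, every whole library lay above every hemisphere library. Groups without overlap, in either direction, were found for 3.64% of all unigenes. All 4 later members were called higher than the mean of both hemispheres, where 22.7% of all unigenes were higher and 24% changed. Hemispheres were averaged after the log2 step, so where they are unequal this mean lies below their average RPKM and favours calls of higher. PAX9 DN6424, for example, was called higher by 0.95, with 8.87 RPKM in whole animals against 12.0 over both hemispheres. The 4 members were higher in mean RPKM too. Otx2 DN10175 and DN9987 had 63.9 against 20.6 and 53.9 against 17.8, Pax7 DN15437 and DN14034 7.79 against 0.279 and 3.59 against 0.217. Otx2 DN10175 was higher by 2.21 ± 0.54 (limma adjusted p = 0.00311) and Otx2 DN9987 by 2.54 ± 0.62 (0.00354), the second at 0.0503 when the 12 libraries were fitted alone. Pax7 DN15437 was higher by 2.79 ± 0.19 (limma adjusted p = 2.69e-10) and Pax7 DN14034 by 1.92 ± 0.21 (2.33e-07). Over all alternatives run, these differences went down to 1.07 for Pax7 DN15437 and 0.52 for Pax7 DN14034.

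**Figure D5:**
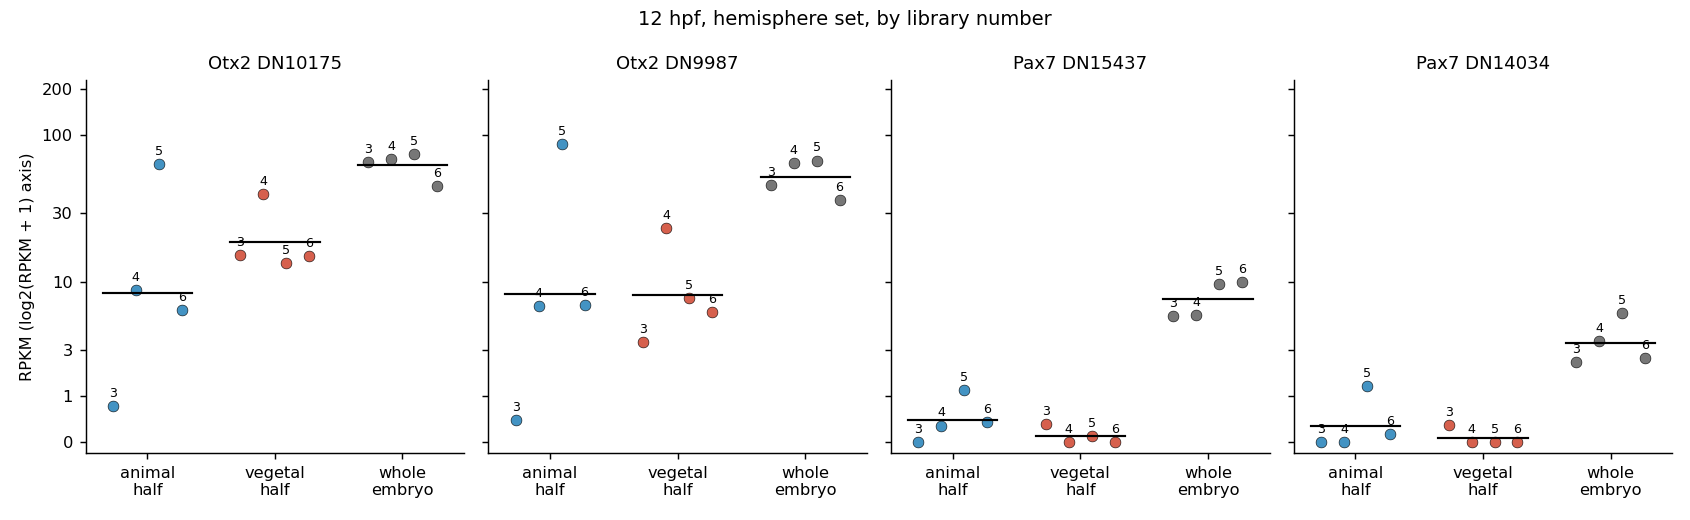
RPKM of the 4 later Otx2 and Pax7 unigenes in 4 animal, 4 vegetal and 4 whole-animal libraries at 12 hpf, on a log2(RPKM + 1) axis, with library numbers and group means (bars). Animal library 5 lies with the whole animals for both Otx2 unigenes, and all whole animals lie above all hemispheres for both Pax7 unigenes.

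Other tissues also differed between whole animals and hemispheres at 12 hpf. The 64 muscle markers summed to 18367 to 24341 RPKM in whole animals, 4703 to 12079 in vegetal and 474 to 1131 in animal hemispheres. The 18 nervous system markers summed to 711 to 1260 RPKM in whole animals, 359 to 1097 in vegetal and 1175 to 2066 in animal hemispheres, and the 69 digestive tract markers to 1733 to 2411, 3621 to 10365 and 424 to 676 RPKM. Single markers in whole animals were set against the same mean of hemispheres, taken after the log2 step, which favours calls of higher. Member by member, 46 of 51 muscle, 5 of 16 nervous system and 21 of 51 digestive tract markers tested were called higher. The numbers called lower were 0, 0 and 1. Over all unigenes 22.7% were called higher and 24% changed in this contrast. The digestive tract sums of whole animals nevertheless lay below all those of vegetal hemispheres. Between hemispheres the nervous system sum was higher in animal ones although 10 of its 16 markers were called higher in vegetal ones and 1 lower. Their median was 1.77, against 0.30 over all unigenes, of which 32.9% were called higher in vegetal hemispheres. The part of these markers in the whole-to-hemisphere difference was not tested. From 8 cells to 12 hpf in whole embryos the same 4 members were called, all higher, by 2.13 to 5.90, against 56.3% of all unigenes higher and 79.1% changed, with a median of 1.17 over all unigenes. After quantile normalization Pax7 DN14034 was not called there (0.22, adjusted p = 0.205), while Otx2 DN12597, PAX3 DN29997 and Pax7 DN14916 were called lower (-1.52, -1.88 and -1.92). PAX3 DN29997 differed by -1.58 ± 0.88 (limma adjusted p = 0.102), a value that rested on 8-cell library 4 and was called without 8-cell library 3, 5 or 6 (-2.11, adjusted p = 0.0424, 0.0426 and 0.0413). Pax7 DN14916 differed by -1.28 ± 0.72 (adjusted p = 0.108), and was called without 8-cell library 5 (-1.70, 0.0468) and with a pseudocount of 0.1 (-2.66, 0.0317).

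Other Pax genes gave 4 unigenes, PAX5 DN9903, Pax5 DN21641, Pax6 DN9255 and PAX9 DN6424, known in vertebrates for the midbrain and B cells, the eye and the pharynx. At 12 hpf all 4 were higher in vegetal than in animal hemispheres, among 32.9% of all unigenes, with a median difference of 3.49 against 0.30 over all unigenes. PAX9 DN6424 had a mean of 24 RPKM in vegetal hemispheres and was listed at 0 in all animal hemispheres, a difference of 4.60 ± 0.25 (limma adjusted p = 2.23e-13). Pax6 DN9255 had a mean of 10.7 RPKM in vegetal hemispheres, was listed at 0 in animal hemispheres and differed by 3.11 ± 0.44 (2.47e-06). All 4 were also called higher from 32 cells to 1.5 hpf, where 14.5% of all unigenes were called. The median rise was 2.24, and the largest was that of PAX5 DN9903 at 7.12 ± 0.51 (limma adjusted p = 2.41e-13). None was called between 8 and 16 cells, where 0.561% of all unigenes were.

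Among 30 other factors of the anterior nervous system 28 were tested in the hemisphere set and 29 in the staged set. At 12 hpf 14 were higher in vegetal and 5 in animal hemispheres and 9 did not pass, where 48.2% of all unigenes were called. The median was 0.92, against 0.30 over all unigenes. NKX2-1 DN8357, a factor of forebrain and thyroid in vertebrates, had means of 52.7 and 0.285 RPKM in vegetal and animal hemispheres, a difference of 5.16 ± 0.35 (limma adjusted p = 1.37e-11). From 32 cells to 1.5 hpf, with Otx2 DN12597, 15 rose, none fell and 14 did not pass, where 14.5% of all unigenes were called. The median was 1.57, against 0.17 over all unigenes. SIX6 DN10174, an eye and forebrain factor, went from a mean of 0.125 to 58.1 RPKM, a rise of 5.72 ± 0.29 (limma adjusted p = 1.83e-17). From 5 to 8 hpf 14 fell and 1 rose, where 29.7% of all unigenes were called, with a median of -0.96 against -0.10. In adults 26 of 29 were lower than in the juvenile, where 49.4% of all unigenes were lower. The median there was -2.36, against -0.82 over all unigenes.

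Among 18 other factors of the neural plate border and neural crest of vertebrates, all 18 were tested in the staged set and 16 in the hemisphere set. A single one, ZIC4 DN10145, a zinc finger factor, was called from 8 to 16 cells with PAX3 DN29997 and Pax7 DN14916, from a mean of 0.480 to 32.1 RPKM (4.33 ± 0.41, limma adjusted p = 6.56e-09). At that step 0.561% of all unigenes were called. ZIC4 DN10145 had a mean of 68.5 ± 63.8 RPKM (SD, n = 4) in vegetal and 0.490 ± 0.709 RPKM (SD, n = 4) in animal 8-cell hemispheres. From 32 cells to 1.5 hpf 9 rose, 1 fell and 8 did not pass, where 14.5% of all unigenes were called. Zic4 DN23754, which rose most, went from a mean of 0.579 to 140 RPKM (6.44 ± 0.35, limma adjusted p = 1.19e-16) and was down at 5.83 RPKM by 2.5 hpf (-4.46 ± 0.35, adjusted p = 1.12e-10). At 12 hpf 4 were higher and 3 lower in vegetal hemispheres and 9 did not pass, where 48.2% of all unigenes were called. The median difference was 0.34, against 0.30 over all unigenes. Among the 3 lower ones was the homeobox gene Dlx1 DN17350, with means of 18 against 125 RPKM (-3.95 ± 0.61, limma adjusted p = 8.88e-06).

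The unigenes most like each member were taken as the 5 with the highest Pearson r over the 15 staged group means of log2(RPKM + 1), among 9009 candidates with a symbol, and are given as a description. For both PAX3 DN29997 and Pax7 DN14916 these were the same 5 unigenes, GLIS3, Egr4, ZIC4 and a pair of Gata2 unigenes, with r from 0.95 to 0.98 and from 0.94 to 0.99. All are transcription factors, with highest means at 32 cells between 7.66 and 57.2 RPKM. For Otx2 DN12597 they were PAK2, Zcchc24, LPAL2, Ppt2 and HPCAL1 (r from 0.97 to 0.99), with highest means at 1.5 or 2.5 hpf.

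For Otx2 DN10175 the list read RUNX1, Tnnc1, ETV1, TGM4 and A1CF, and for Otx2 DN9987 Gata3, Col5a1, Tbx3, Tpm1 and BARX1, with r from 0.990 to 0.995 and from 0.993 to 0.996. Both hold a muscle gene, the troponin gene Tnnc1 at 866 RPKM and the tropomyosin gene Tpm1 at 998 RPKM at 5 hpf. The full muscle list shared a part of their course. From 2.5 to 3 hpf 44 of its 64 unigenes were called higher and 0 lower, against 27.6% of all unigenes called. From 3 to 5 hpf 30 were called higher and 9 lower, against 35.7%. From 5 to 8 hpf Otx2 DN10175 fell and Otx2 DN9987 was not called (-0.79, limma adjusted p = 0.187). At that step 17 of the muscle unigenes were called higher, 5 lower and 42 did not pass, against 29.7%. In adults 52 were lower and 3 higher than in the juvenile, where 49.4% of all unigenes were lower. Pax7 DN15437 was closest to the adhesion genes KIRREL2, FLRT1 and Kirrel1 and to Dlx1 and CELSR2, and Pax7 DN14034 to CHSY1, B3galt1, SLC45A4, CHST11 and Sstr2, of which CHSY1 and CHST11 encode enzymes of chondroitin sulfate synthesis.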

How the data were processed

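RNA-seq of 67 libraries was used as the RPKM tables that the authors deposited, per unigene and scaled by reads, after HISAT2 alignment per the submitters' processing notes (version and settings not given in the sources used here). Per the labels' protocols RNA was extracted with Trizol, staged libraries were strand specific and hemisphere libraries were not. The authors' deposited table of read counts per library gave depth and lanes. In it 7 libraries in 7 groups carry joined descriptions, such as pooled numbers, whose meaning is not given, so they may not be independent. Counts per unigene were not used, so intervals for counting error are not given. The stage labelled 2.5 hpf is headed 2 hpf in the table and was matched by stage and library number. Another 148 columns of values per library were not used.

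The scale was log2(RPKM + 1). Each set was filtered to unigenes reaching 1 RPKM in 4 hemisphere libraries (15697 left) or 2 staged libraries (18704 left). The test was limma's (version 3.58.1, R 4.3.3, eBayes with a trend), with a mean per group, a spread shared over the set and Benjamini-Hochberg adjustment over all unigenes tested, separately for each contrast, at 0.05. The script was tested on simulated data. Tables and figures used Python 3.11.15, numpy 2.4.6, pandas 2.3.3 and matplotlib 3.10.9.

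Members and lists were chosen with earlier results of these data known. All members are named, with up to 4 list members per contrast by smallest adjusted p, of which the text gives some, and the 5 unigenes most like each member. Alternatives were another pseudocount, no filter, quantile normalization, eBayes without a trend, smaller fits, each library left out, and the replicate number as a block. Same-numbered animal, vegetal and whole libraries deviated together within each time (r from 0.31 to 0.70 at 8 cells, 0.14 to 0.34 at 12 hpf), so the numbers pair them there. Whole libraries of both times were not paired (r from -0.05 to 0.11). A lane covariate and leaving out 3 libraries were added after seeing the data.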

Additional observations from a re-analysis of the deposited data

Results flagged for a closer look

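Among 18 sets of 4 libraries in which a member reached 1 RPKM, 7 values lay far from the other 3 of their group by the gap limits of Dixon's test. A set could enter through the flagged library alone, and members share libraries, so no rate by chance can be set beside the 7. They are given as a description. Of these, 3 were whole 8-cell library 4, with Otx2 DN12597 at 11.8 RPKM, PAX3 DN29997 at 78.7 RPKM and Pax7 DN14916 at 25 RPKM. Another 3 were animal 12 hpf library 5, with Otx2 DN10175 at 64.0 RPKM, Otx2 DN9987 at 87.3 RPKM and Pax7 DN14034 at 1.32 RPKM. The last was vegetal 12 hpf library 4, with Otx2 DN10175 at 40.2 RPKM. Stages with 3 libraries and adults with 2 were not examined this way.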

How the results depend on the processing

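Counts of members called stayed within 1.5 times of those reported under all alternatives run, with these exceptions. Between hemispheres at 12 hpf, 2 instead of 0 were called with quantile normalization, 2 when the 3 outlying libraries were dropped, and 0 to 1 without each library in turn. Between adult sexes 2 were called after quantile normalization. Leaving out each library in turn gave 4 to 6 for whole 12 hpf against 8-cell embryos, 4 for whole animals against hemispheres, 7 for the F-test, 0 between sexes, 4 for adults against the juvenile and 16 to 20 of the steps. With the replicate block 0, 4 and 4 were called in the 3 hemisphere contrasts, as without it, and the block changed no other call. Of 1207 alternative values of single members, 1163 kept their call, 18 lost a call, 19 gained one, 3 of the 8-cell differences moved by more than the spread (to 6.51, 5.64 and 5.31 with a pseudocount of 0.1) and 4 had the other sign with a call. Another 22 values, called in neither, also had the other sign. The 4 were Otx2 DN9987 between hemispheres at 12 hpf (1.40 without the 3 libraries), Pax7 DN14916 from 16 to 32 cells (-0.91 to 1.06 over its libraries left out in turn, negative without the third 16-cell library), and Otx2 DN10175 and Otx2 DN9987 between sexes (-2.11 and -1.58 after quantile normalization). That scaling moved the median over all unigenes from 0.73 to -0.04 between sexes and from 1.17 to -0.18 between whole 12 hpf and 8-cell embryos, and the share of calls that were higher from 85.9% to 52.6% and from 71.1% to 42.7%. For whole animals against hemispheres at 12 hpf the median moved from 0.26 to -0.19 and that share from 94.7% to 50%. Under quantile normalization Pax7 DN14034 lost its calls for whole 12 hpf against 8-cell embryos (0.22, limma adjusted p = 0.205) and adults against the juvenile (-0.14, 0.728). The cause was not tested. Depth per unigene was not used here, so differences under about 1 RPKM cannot be weighed.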
